A study of Equus caballus with 68 samples.

Results

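The comparison described here is the change, between 6 and 10 days of culture, in how equine bone marrow mononuclear cells in inflamed synovial fluid differed from cells of the same horses in normal synovial fluid. For each gene it is (ISF minus SF at 10 days) minus (ISF minus SF at 6 days) on log2(GeTMM + 1), where GeTMM is a read count scaled for gene length and library size. It rested on 30 of the 68 RNA-seq libraries of the series: 8 of SF cultures and 8 of ISF cultures at 6 days, and 7 of each at 10 days. All 4 libraries were present for 7 of the 8 horses, and the horse Flash had none at 10 days.

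The cells were the mononuclear fraction of the marrow of Thoroughbred horses aged 3 to 9 years, both geldings and mares. SF cultures (groups SF 6 d and SF 10 d) were kept in undiluted normal synovial fluid of the cells' own donor, drawn from middle carpal joints. ISF cultures (ISF 6 d and ISF 10 d) were kept in fluid of the same donor drawn from radiocarpal joints after lipopolysaccharide had been injected, so joint and inflammation cannot be told apart. Both fluids were cleared of cells before use, and more of the same stored fluid was added during culture. No drug or transgene was given, and each library was 1 culture of 1 horse, 1 fluid and 1 time. The question was which genes separated the fluids at one of the later times and no longer, or newly, at the other.

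Mononuclear marrow cells hold monocytes, lymphocytes and blood cell precursors, and in culture with joint fluid the monocytes mature into macrophages. Cells that divide transcribe a shared programme: the MCM helicase and other replication factors before DNA synthesis, then kinases, centromere proteins and tubulins for mitosis. Macrophages in inflamed fluid also release chemokines, which draw in leukocytes, and hyaluronan-binding proteins such as TNFAIP6 (TSG-6), which is made in response to inflammatory signals. In these bulk libraries, fewer cells of a type and less RNA per cell cannot be told apart.

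Some macrophage markers were abundant in all 4 groups. Their summed level was 23548 to 100776 GeTMM in SF 6 d, 19864 to 100975 in ISF 6 d, 30744 to 75886 in SF 10 d and 48025 to 83048 in ISF 10 d, and none of the 13 measured markers was at 0 throughout a group. CD14 was the lowest of them, with group medians of 0.869, 5.48, 1.496 and 4.35 GeTMM in that order. SPP1 and GPNMB took much of the sum, with medians of 14971 and 13373 GeTMM in SF 6 d and 47511 and 8083 in ISF 10 d. MRC1 and C1QB had medians of 118 and 108 GeTMM in ISF 10 d. None of the 13 had an interaction past the threshold described next.

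A pair of libraries stood apart. The SF 6 d library of the horse Moon had a sum of 2.32 M GeTMM, against 0.818 to 1.15 M in the other 29, and the fewest genes above 0, 12797 against 15074 to 16975. Its correlation with the mean of its group was 0.845, against 0.963 to 0.989 for the others, although it held 20.8 M recovered reads within the range of 18.8 to 27.4 M over the 30 libraries. The SF 10 d library of Lurie had a summed level of 8424 GeTMM over 23 fibroblast or stromal markers, against 270 to 1857 in the others, with COL1A1 at 1359 GeTMM against at most 92.0. Results are therefore given with and without Moon's library, and the leading counts also without Lurie's.

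With all libraries, the group interaction was past a false discovery rate (FDR) of 0.05 for 33 of 14570 genes, 0.226% of those tested. The fluid difference was lower at 10 days for 21 of them (0.144%) and higher for 12 (0.0824%). Without Moon's library 99 genes were called (0.679%), 55 lower (0.377%) and 44 higher (0.302%), and all 33 were among them. With a term for horse, which pairs the libraries of one animal, 270 were called (1.85%), 182 lower (1.25%) and 88 higher (0.604%), again with all 33 among them. Within horses, where each of the 7 animals gave 1 difference of differences, 27 of 14558 genes were called (0.185%), and without Moon 403 (2.77%).

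The calls rested on the spread pooled over all 9 groups of the series. The median residual standard deviation was 0.351 over all 9, 0.401 in these 4 and 0.275 in the other 5. The pooled spread was thus smaller than that of the groups compared. Without Moon's library the value of these 4 was 0.291. Fitted to the 30 libraries alone, limma called 0 genes, with 1263 at an unadjusted p under 0.05, and 0 without Moon's library, with 1761. Leaving out 1 horse at a time gave between 1 call (without Ollie) and 194 (without Moon) in the group interaction, and none of the 33 was called each time. Within horses it gave 0 to 2 calls, and 403 without Moon. Leaving out Lurie's SF 10 d library left 15 of the 33 and called no other gene. Rescaling every library to an equal sum gave 75 lower and 6 higher, where the median interaction of all genes was -0.20 against -0.05 as deposited and -0.00097 without Moon's library.

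The fluids differed at both times for many genes, and for fewer at the later one. ISF and SF differed in 4405 genes at 6 days (30.2%) and in 3027 at 10 days (20.8%), or in 5274 and 4126 without Moon's library. Between the times, 1533 genes changed in ISF cultures (10.5%) and 696 in SF cultures (4.78%). Without Moon's library 2276 changed in ISF cultures and 319 in SF cultures. Among the 33 genes the larger move was in ISF cultures for 26 and in SF cultures for 7, against 47.1% in ISF over all genes tested. Without Moon's library it was in ISF cultures for 80 of the 99 genes called, against 56.8% of all genes. By group means, the difference changed sign between 6 and 10 days in 23 of the 33 (4159 of all 14570 genes). It narrowed in 6 (5564 of all) and widened in 4 (4847 of all). All 21 that were lower had been higher in ISF at 6 days, as had 5276 of the 8113 tested genes with an interaction not above 0. The interaction subtracts the 6-day difference, so these values are not independent. Of the 21, 20 had a called fluid difference at 6 days and 4 at 10 days.

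**Figure D1:**
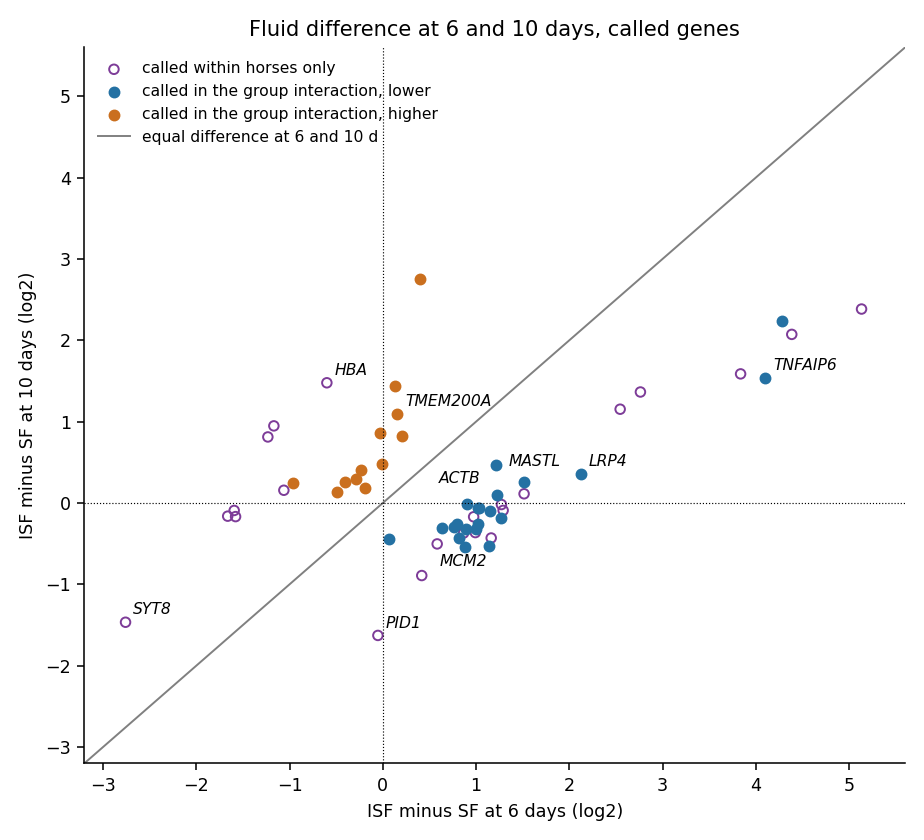
Each point is a gene called in the group interaction (filled, 33 genes) or only within horses (open), placed by its ISF minus SF difference in log2 units at 6 days (horizontal) and at 10 days (vertical). The blue points, the 21 genes that were lower, lie below the grey line of equal difference with 6-day values above 0, and most of them sit near or under 0 at 10 days.

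Of 31 measured genes of the DNA replication list, 3 were called with a lower difference (MCM2, MCM3 and MCM4) and none with a higher one, and all 31 had values below 0, with a median of -0.62. Over all genes tested, 55.6% were below 0. Without Moon's library 6 of the 31 were called, MCM5, POLA2 and FEN1 in addition, and the median was -0.70. Of 34 mitosis genes, 1 was called (CENPA), all 34 were below 0 and the median was -1.03, or -0.99 without that library. Both medians stayed below 0 under each scaling, and 1 replication gene was above 0 with median ratios.

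The within-horse comparison called 3 mitosis genes, PLK1, KIF20A and PRC1, and no replication gene. Without Moon it called 28 of the 34 mitosis genes and 12 of the 31 replication genes, where 2.77% of all genes were called. Between 6 and 10 days 32 of 34 mitosis genes and 24 of 31 replication genes fell in ISF, where 10.5% of all genes changed. In SF, where 4.78% did, 0 of either list passed the threshold. At 6 days 26 mitosis and 15 replication genes were higher in ISF than in SF (30.2% of all genes differed). At 10 days none of either list was higher in ISF, and 1 replication gene was lower (20.8% differed).

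MCM2, a subunit of the helicase that opens DNA for replication, had lowest, median and highest levels of 8.35, 16.1 and 27.5 GeTMM in SF 6 d and 18.7, 27.8 and 38.5 in ISF 6 d. At 10 days they were 7.91, 15.5 and 19.1 in SF and 5.76, 10.2 and 22.4 in ISF. The SF medians were nearly equal at both times while the ISF median fell below them, and the groups overlapped at each time. The interaction was -1.25 ± 0.29 (standard error; FDR 0.0389 by limma), lower in all 7 horses, and -1.18 without Moon's library. Its partners MCM3 and MCM4 had interactions of -1.22 and -1.05, each lower in 7 of 7 horses.

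CENPA, the histone variant that marks centromeres, had levels of 12.7, 27.6 and 40.2 GeTMM in SF 6 d and 29.2, 43.1 and 72.1 in ISF 6 d, and of 21.0, 25.9 and 34.1 in SF 10 d and 9.82, 16.9 and 38.6 in ISF 10 d. Its interaction was -1.42 (FDR 0.0309), lower in 6 of 7 horses, with Moon at 0.05. PLK1, a kinase that drives entry into and passage through mitosis, went from a median of 20.5 GeTMM in ISF 6 d to 4.13 in ISF 10 d, and from 9.16 to 8.20 in SF. It was called within horses (-1.54 ± 0.17, FDR 0.0208, 7 of 7 horses) and, in the group interaction, not with all libraries (FDR 0.0526) but without Moon's (FDR 0.0422) and with the term for horse (FDR 0.0156). The ISF 10 d library of Moon held 19.5 GeTMM of PLK1, the highest of its group.

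MASTL, the Greatwall kinase of mitosis, had an interaction of -1.26, and DDIAS, named for suppressing apoptosis after DNA damage, one of -1.28. Without Moon's library these were -1.11 and -1.05. PHF19, an accessory subunit of the Polycomb repressive complex, had levels of 0.775, 7.08 and 12.9 GeTMM in SF 6 d, 9.63, 13.7 and 22.7 in ISF 6 d, 3.72, 9.53 and 13.7 in SF 10 d and 3.37, 5.21 and 13.97 in ISF 10 d. It went from higher in ISF at 6 days to no detected difference at 10 days (log2 differences 1.14 and -0.53, the latter at FDR 0.164). Moon's library held its lowest SF 6 d level. Without that library the 6-day difference was 0.86 and the interaction -1.39, against -1.67 with it. PHF19 was 1 of 4 genes called both in the group interaction and within horses, with TNFAIP6, TUBB and ENSECAG00000028085, an entry without a symbol. TUBB and that entry were named after their values were seen.

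**Figure D2:**
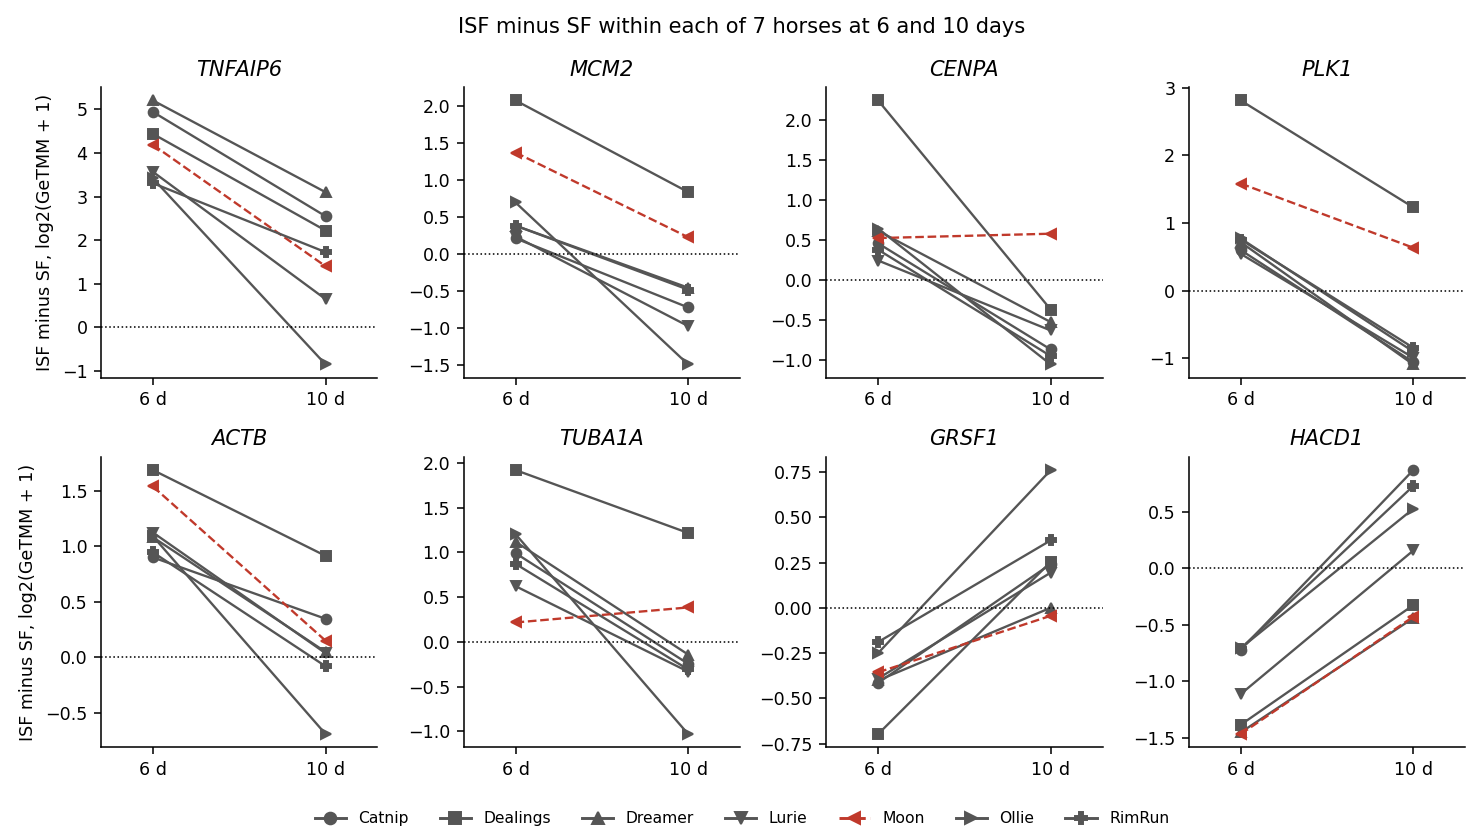
The vertical axis is ISF minus SF on log2(GeTMM + 1) within a horse, at 6 and at 10 days, with 1 line for each of the 7 horses that had all 4 libraries (Moon dashed red). The lines of MCM2, PLK1, TNFAIP6 and ACTB descend in 7 of 7 horses and those of CENPA and TUBA1A in 6 of 7, while GRSF1 and HACD1 rise in 7 of 7.

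ACTB, beta-actin, had levels of 2036, 3592 and 4310.2 GeTMM in SF 6 d and 5906, 7798 and 9164 in ISF 6 d, which did not overlap. At 10 days the levels were 3362, 4401 and 6574 in SF and 3576, 4802 and 6329.6 in ISF, which did. The interaction was -1.12 ± 0.22 (FDR 0.00849), lower in 7 of 7 horses, and ACTB and GRSF1 were called in 20 of 26 alternative fits, the most of the 18 genes named from the group interaction. TUBA1A, an alpha-tubulin, had medians of 454 and 898 GeTMM in SF and ISF at 6 days and of 425 and 385 at 10 days (interaction -1.10, FDR 0.0309, 6 of 7 horses). TUBB, a beta-tubulin, had an interaction of -1.08 (FDR 0.00717), and TPM4, a tropomyosin named after its values were seen, one of -0.75 (FDR 0.0146). Actins and tubulins have near-identical copies elsewhere in the genome, so reads may have been split among them.

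For TNFAIP6 the difference narrowed while SF cultures rose. It had levels of 4.95, 12.5 and 18.1 GeTMM in SF 6 d and 167, 208 and 372 in ISF 6 d, and the lowest ISF library was above the highest SF library. At 10 days it had 15.5, 55.2 and 108 in SF and 42.4, 141 and 328 in ISF, and the groups overlapped. The fluid difference was 4.10 at 6 days and 1.54 at 10 days, and the interaction was -2.56 ± 0.56 (FDR 0.0261), lower in 7 of 7 horses. SF cultures rose by 1.79 on the log2 scale (FDR 0.00422), while the change in ISF was -0.76 (FDR 0.248). Without Moon's library the interaction was -2.52 (FDR 0.0183).

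CCL2, the chemokine that attracts monocytes, had levels of 342, 468 and 1596 GeTMM in SF 6 d, 5264, 8317 and 13874 in ISF 6 d, 372, 1756 and 3961 in SF 10 d and 1941, 9855 and 10136 in ISF 10 d. Its interaction of -1.92 missed the threshold with all libraries (FDR 0.0870) and passed it without Moon's library (-2.15, FDR 0.0327) and with the term for horse (FDR 0.0443), with 5 of 7 horses lower. The related CCL8, named after its values were seen, had -2.63 at FDR 0.0669, and FDR 0.0471 without that library and 0.0150 with horse. In all, 0 of 17 chemokines were called, 12 were below 0, and the median was -0.59. CCL3 had an interaction of -0.57 (FDR 0.733).

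LRP4, a surface receptor of the low-density lipoprotein receptor family, rose in SF by 1.51 on the log2 scale (FDR 0.00141), and its interaction was -1.77 (FDR 0.0453, 6 of 7 horses). Moon's SF 6 d library held 0.842 GeTMM of it, against 3.16 to 11.3 in the other 7. Without that library the rise in SF was 1.25 and the interaction -1.50 (FDR 0.0471). ENDOD1 (-1.45) was at 0 in that library and SLC35F6 (-1.25) at 16.6 GeTMM, below the 63.2 to 102 of the others, and both remained called without it (FDR 0.0252 and 0.0249).

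**Figure D3:**
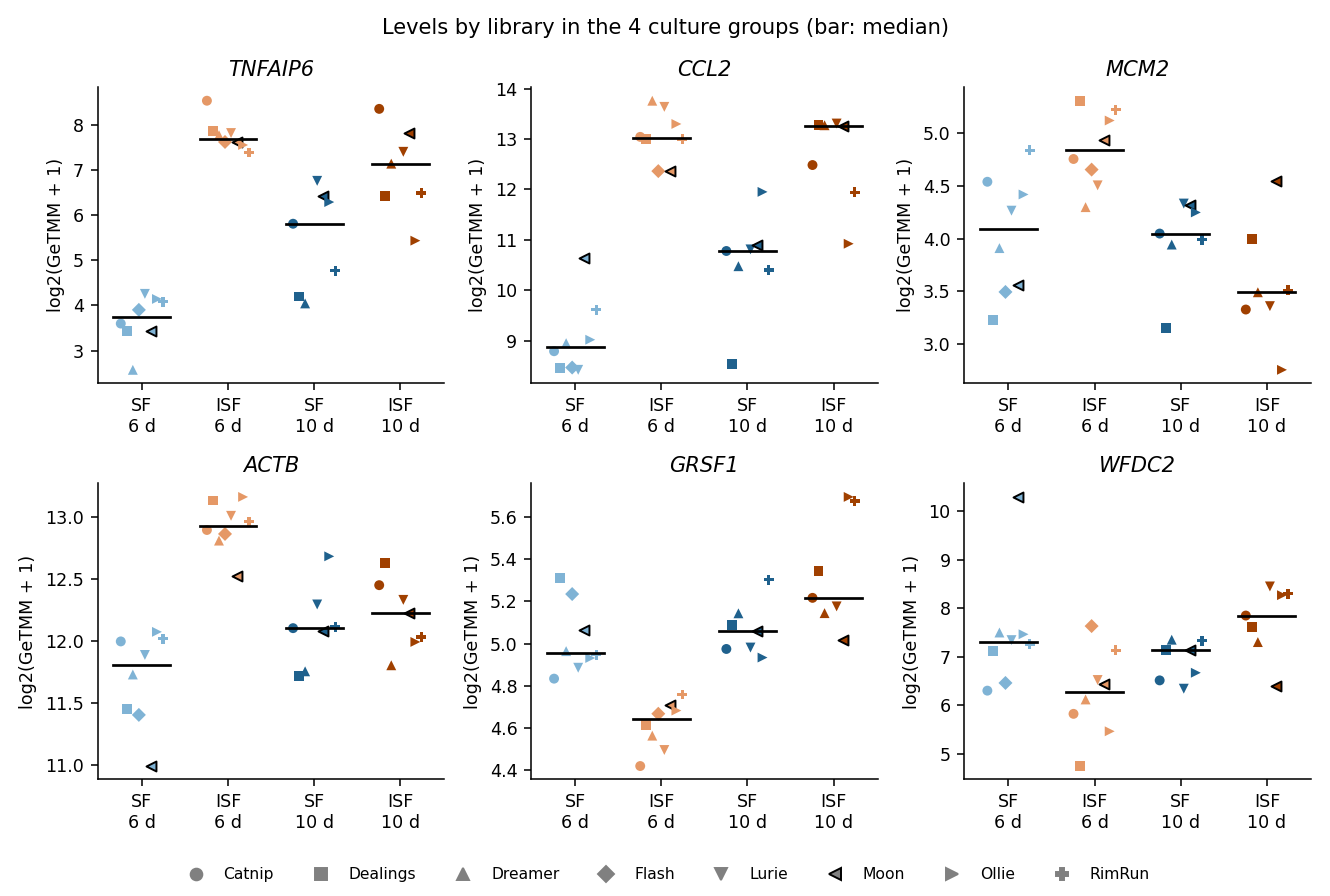
Points are single libraries on log2(GeTMM + 1), with 1 symbol for each horse, black outlines for Moon and a bar at the median of each group. TNFAIP6 and CCL2 stand higher in SF at 10 days than at 6 days, MCM2 and ACTB stand highest in ISF at 6 days, GRSF1 stands lowest there, and the WFDC2 point of Moon in SF 6 d lies far above the others.

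Within horses, PLK1 and 4 further genes with a lower difference are given. NPTX1, neuronal pentraxin 1, had medians of 4.34 GeTMM in SF 6 d, 188 in ISF 6 d, 23.3 in SF 10 d and 97.3 in ISF 10 d, and its interaction within horses was -2.62 ± 0.37 (FDR 0.0448). C1QTNF6, a secreted relative of C1q, went in SF from a median of 6.23 to 21.6 GeTMM (-1.44 within horses). DAB2, an endocytic adaptor, had -1.39. PID1, an adaptor known from insulin signalling, had a fluid difference of -0.05 at 6 days and -1.63 at 10 days. Lurie's SF 10 d library held 23.6 GeTMM of PID1, against a group median of 4.90. These 4 were lower in 7 of 7 horses, and none was called in the group interaction (FDR 0.0683 to 0.243). With the term for horse PID1 and C1QTNF6 were called (FDR 0.0272 and 0.0364).

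The 6 genes named for a higher difference in the group interaction had values of 0.38 to 0.66. GRSF1, an RNA-binding protein of mitochondrial RNA granules, had levels of 27.5, 30.03 and 38.7 GeTMM in SF 6 d and 20.4, 23.9 and 26.1 in ISF 6 d, where every ISF library was below every SF library. At 10 days they were 29.6, 32.4 and 38.5 in SF and 31.4, 36.2 and 50.8 in ISF. The interaction was 0.66 ± 0.13 (FDR 0.00731), higher in 7 of 7 horses, with changes of 0.71 in ISF and 0.05 in SF. NAA35, an auxiliary subunit of the NatC acetyltransferase, differed between the fluids by -0.01 at 6 days (13.4, 14.9 and 18.2 in SF, 12.9, 15.0 and 18.5 in ISF). At 10 days its ISF libraries (16.7, 19.5 and 20.7 GeTMM) lay above every SF library (11.7, 13.1 and 14.8), with an interaction of 0.48 (FDR 0.0308).

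COG2, a subunit of the conserved oligomeric Golgi complex, had an interaction of 0.38 (FDR 0.0309), and DYM, dymeclin, one of 0.63 (FDR 0.0309). MPHOSPH10, of the small nucleolar particle that processes ribosomal RNA, had 0.58, and TDRD3, a reader of methylated arginine, had 0.63. COG2, DYM and MPHOSPH10 were higher in 7 of 7 horses and TDRD3 in 6. For DYM the larger move was in SF (-0.47). TDRD3 changed by -0.34 in SF, or -0.25 without Moon's library, and by 0.29 in ISF. That library held 15.2 GeTMM of TDRD3, against 6.90 to 12.03 in the others. Chosen after their values were seen, TMEM200A and STOX1 were low in SF and ISF at 6 days (medians of 0.207 and 0.255 GeTMM, and of 0.404 and 0.309) and reached medians of 2.38 and 1.72 in ISF at 10 days.

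Within horses, 6 genes were named for a higher difference, and Moon's SF 6 d library held the highest SF 6 d level of all 6. HACD1, an enzyme that elongates very long chain fatty acids, had levels of 40.6, 48.4 and 97.8 GeTMM in SF 6 d, 17.2, 24.4 and 34.8 in ISF 6 d, 30.2, 40.3 and 54.5 in SF 10 d and 29.7, 43.3 and 72.8 in ISF 10 d. Its interaction was 1.24 ± 0.14 within horses (FDR 0.0208), and 1.27 without Moon (FDR 0.0114). WFDC2, a secreted protein with protease inhibitor domains, was at 1255 GeTMM in Moon's library and at 77.7 to 179.8 in the other 7 of SF 6 d. Within horses its interaction was 2.39, and 2.27 without Moon (FDR 0.0175).

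The other 4 were HBA, alpha-globin (2.20 within horses), TNFRSF18, the receptor GITR of lymphocytes (2.14), SYT8, a synaptotagmin (1.64), and HSF4, a heat shock transcription factor (1.62). Each was higher in 7 of 7 horses and was called within horses without Moon too (FDR 0.0159, 0.0235, 0.0164 and 0.0135). None of the 6 was called in the group interaction (FDR 0.0543 to 0.455), but with the term for horse HACD1, HSF4 and WFDC2 were (FDR 0.0196, 0.0298 and 0.0391). Alpha-globin genes are near-identical copies, so the entry may hold reads of more than 1.

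**Figure D4:**
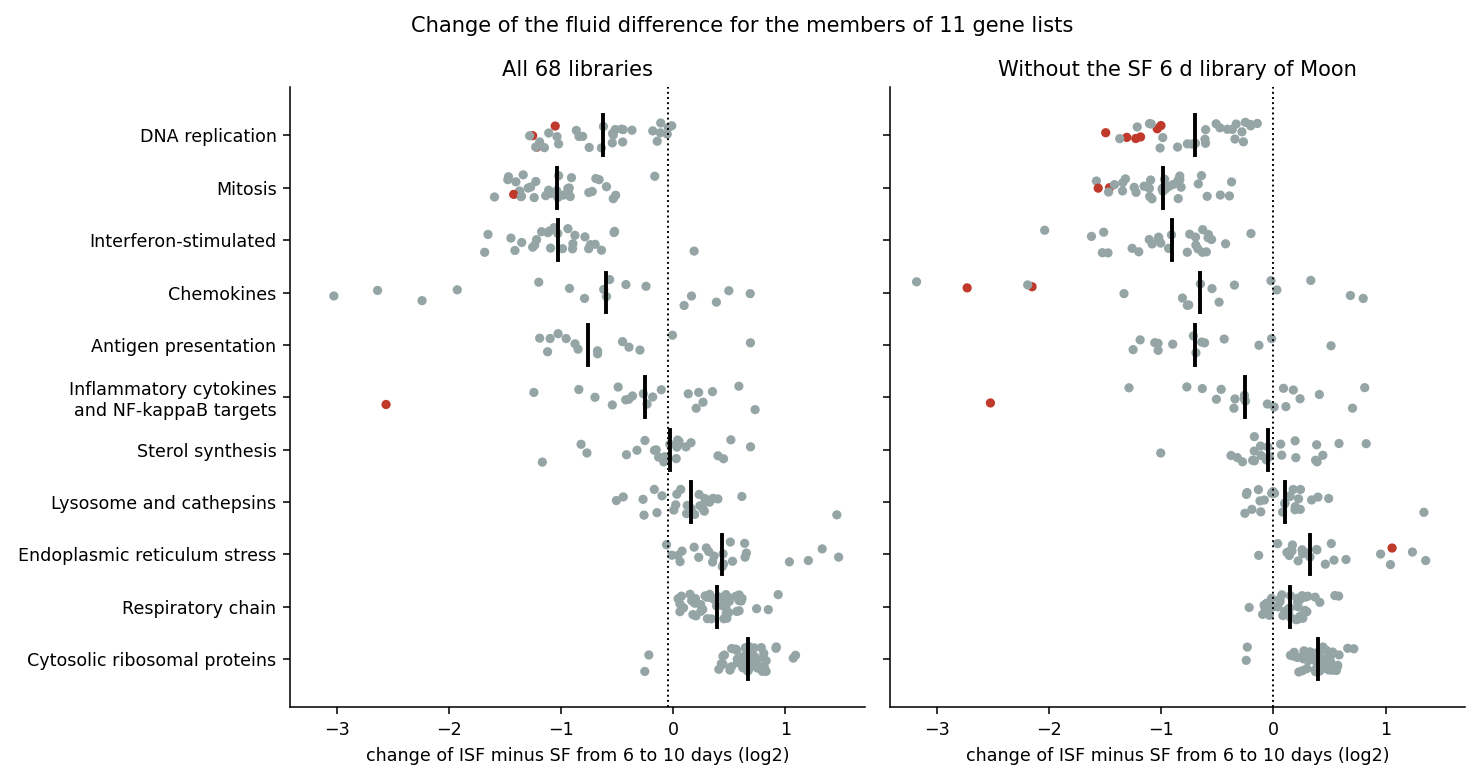
Each point is a gene's change of ISF minus SF from 6 to 10 days in log2 units, by list, with all libraries (left) and without the SF 6 d library of Moon (right). Red points passed the FDR, black bars are list medians and the dotted line is the median of all genes. Every replication and mitosis gene lies below 0 on both sides, and the ribosomal and respiratory medians move toward 0 on the right.

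Interferon-stimulated genes, the antiviral programme, were below 0 for 26 of 27, with a median of -1.03, and 0 were called. Their spread between horses was wide. ISG15 ranged from 9.10 to 1064 GeTMM in SF 10 d (interaction -1.65, FDR 0.563), and IFIT2 had an interaction of -1.12 (FDR 0.494). The list's median change between the times was 1.08 in SF and 0.05 in ISF, with 2 of 27 called in SF, near the 4.78% of all genes, and 0 in ISF. Without Moon, the within-horse comparison called 2 members, OAS2 and OAS3, at interactions of -1.22 and -1.41, where 2.77% of all genes were called.

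Antigen presentation genes were below 0 for 13 of 14, with a median of -0.76 and 0 called. With the term for horse 2 were called, CIITA, the master regulator of class II genes, and DQA, a class II chain. Without Moon's library 6 were called with that term, where 380 of 14570 genes were, and 5 within horses, where 403 of 14549 were. CIITA had levels of 5.64, 8.71 and 13.4 GeTMM in SF 6 d, 2.16, 3.67 and 7.81 in ISF 6 d, 5.56, 9.97 and 14.3 in SF 10 d and 1.21, 1.42 and 1.91 in ISF 10 d (interaction -1.10, FDR 0.120, and 0.0314 with horse). At 10 days each ISF library was below each SF library. CD74, the invariant chain, fell in ISF by 1.55 on the log2 scale (FDR 0.000326) and had an interaction of -1.19 (FDR 0.184). Of 12 B and plasma cell markers, 10 were lower in ISF at 6 days (30.2% of all genes differed) and 8 at 10 days (20.8% did). MS4A1, which B cells carry on their surface, had an interaction of -0.24, and the part of these markers in the class II values was not tested.

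Endoplasmic reticulum stress genes were above 0 for 21 of 23, with a median of 0.44, or 0.33 without Moon's library and 0.21 after rescaling to equal sums, with 0 called. The list's mean difference was higher at 10 days in 7 of 7 horses. At 6 days 11 of 23 were higher in ISF and 1 lower, where 30.2% of all genes differed, and at 10 days 16 were higher and none lower, where 20.8% did. HSPA5, the chaperone BiP, had medians of 388 and 739 GeTMM in SF and ISF at 6 days and of 437 and 1430.2 at 10 days (interaction 0.53, FDR 0.363). HSP90B1, its partner GRP94, had 0.51 (FDR 0.270). XBP1, a transcription factor of the response, was called with the term for horse (0.64, FDR 0.0291), and DNAJB9, a co-chaperone, without Moon's library (1.06, FDR 0.0235).

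Cytosolic ribosomal protein genes had a median of 0.67, with 2 of 50 below 0, and respiratory chain genes one of 0.39, with 0 of 45 below 0. None of either list was called. Without Moon's library the medians were 0.39 and 0.15, and 11 respiratory genes were below 0. In that library RPL3 was at 3157 GeTMM against 790.0 to 1098 in the other SF 6 d libraries, and NDUFA4 at 2666 against 485 to 729.7. Interactions were 0.41 for RPL3, 0.65 for RPL4, 0.47 for NDUFA1 and 0.20 for NDUFA4, the last -0.07 without Moon's library. At 6 days 47 of 50 ribosomal genes were lower in ISF (30.2% of all genes differed), and at 10 days none passed the threshold (20.8% did).

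Among cytokines and NF-kappaB targets, TNFAIP6 was the sole member called of 20 (median -0.25), with IL18 called in addition with the term for horse (-1.24, FDR 0.0457). Osteoclast genes had a median of 0.30, or 0.09 after rescaling to equal sums, and a median over horses of 0.10. ACP5, the tartrate-resistant phosphatase, went from 167 to 272 GeTMM in ISF and from 933 to 563 in SF (1.29, FDR 0.184, and 0.0458 with horse). CTSK, the collagen-cleaving cathepsin, had 0.92 (FDR 0.472). Matrix protease genes had a median of -0.78 over 11 genes (-0.53 without Moon's library), and MMP1, interstitial collagenase, was at a median of 319 GeTMM in SF 10 d and 55.3 in ISF 10 d (-1.91, FDR 0.178, 7 of 7 horses lower). MMP2 had -1.12, and its highest level, 99.0 GeTMM, was in SF 10 d.

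The remaining lists had no member called in the group interaction. Of 26 glycolysis genes, 20 were higher in ISF at 6 days, where 30.2% of all genes differed, and 21 at 10 days, where 20.8% did. Their median interaction was 0.21, but 0.10 without Moon's library and -0.02 after rescaling to equal sums. The glucose transporter SLC2A1 had 0.49 and the hexokinase HK1 -0.29. Medians within 0.2 of 0 were measured for sterol synthesis (-0.03, HMGCS1 0.04), lipid uptake (-0.02, PPARG -0.68, NR1H3 0.02), NRF2 targets (0.02, NFE2L2 0.23, HMOX1 -0.40), lysosome (0.16, LAMP1 -0.27, LAMP2 0.12), growth factors (-0.16, IGF1 -0.20, IGF1R 0.29) and the S100 family (0.17, S100A1 0.88, S100A4 1.52). The medians of sterol synthesis, lipid uptake, NRF2 targets, lysosome and the S100 family changed sign with the scaling, and those of growth factors and the S100 family without Moon's library (0.02 and -0.06). Without it the medians of lysosome, NRF2 targets and sterol synthesis were 0.10, 0.10 and -0.05.

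Markers of other cells moved between these groups, and their part in the division genes was not tested. The neutrophil and precursor markers fell in both fluids. The median over libraries of their mean log2 level went from 7.05 in SF 6 d to 4.06 in SF 10 d and from 4.47 in ISF 6 d to 2.25 in ISF 10 d. Of the 8 genes, 5 were called in SF, where 4.78% of all genes changed, and 4 in ISF, where 10.5% did. MPO and ELANE, granule enzymes of neutrophil precursors, had interactions of 1.70 and 1.86 (FDR 0.435 and 0.443). The list's median was 0.68 over genes in the group interaction, or 0.41 without Moon's library, while the median over horses of its mean was -0.74. T and natural killer cell markers had a median of -0.62 over 18 genes (-0.37 without Moon's library), 16 of them below 0, lower in the mean of 7 of 7 horses, with CD3D at -1.13 and CD3E at -0.78. The summed T and natural killer level was 125 to 551 GeTMM in SF 6 d, 170.3 to 441 in ISF 6 d, 115 to 447 in SF 10 d and 123 to 293 in ISF 10 d. CD28 took much of that sum, with medians of 65.4 GeTMM in SF 6 d and 223 in ISF 6 d. Of the 18 markers, 13 were lower in ISF at 6 days (30.2% of all genes differed) and 15 at 10 days (20.8% did). IL7R was at 0 in every SF 6 d library.

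Fibroblast or stromal markers had the lowest median of the cell lists, -1.11 over 21 genes with 18 below 0, and 0 were called. COL1A1 and COL1A2, the collagen I chains, had interactions of -2.30 and -2.48 (FDR 0.4003 and 0.311), and in SF 10 d COL1A1 ranged from 0.0632 to 1359 GeTMM, the highest value being Lurie's. Macrophage markers had a median of -0.48 (CD68 0.21, CD163 -0.13), or -0.26 without Moon's library, and the median over horses of their mean was -0.06. The median was -0.24 for B and plasma cell markers, 0.14 for erythroid and megakaryocyte markers (ALAS2 0.12, GATA1 -0.14) and -0.16 for endothelial markers (PECAM1 -0.12, TEK -0.20), the last -0.0091 without that library. Of the adipocyte markers only ADIPOQ was tested (0.05, and 0.18 without it).

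**Figure D5:**
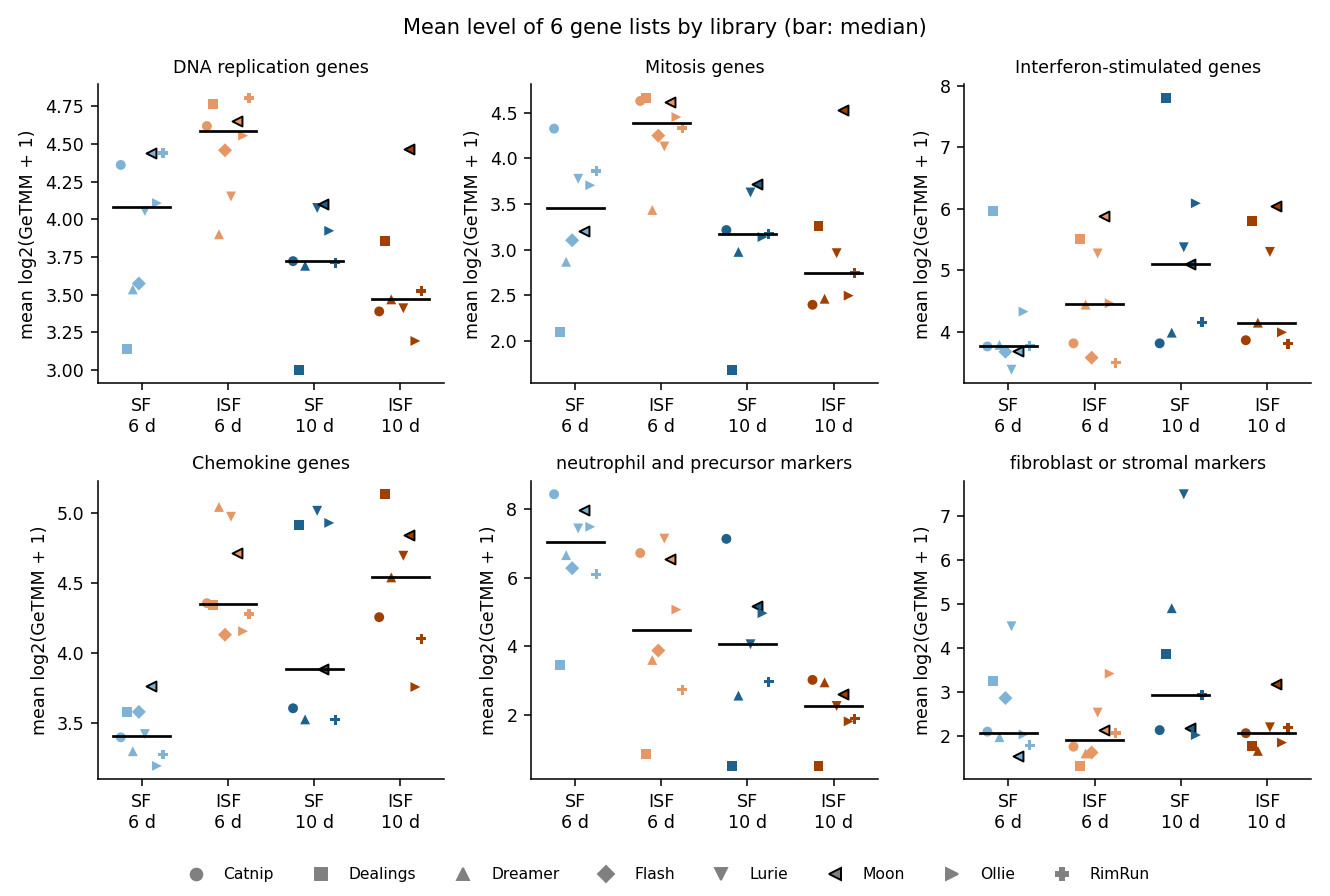
Points are single libraries and give the mean of log2(GeTMM + 1) over the tested genes of a list, with 1 symbol for each horse, black outlines for Moon and a bar at each group's median. Replication and mitosis lists stand highest in ISF at 6 days and lowest in ISF at 10 days by their medians (4.59 and 3.47 for replication), the neutrophil list is lower at 10 days in both fluids, and Lurie's SF 10 d library is the highest stromal point.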

How the data were processed

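Stranded RNA-seq was analysed for 30 libraries of SF and ISF cultures at 6 and 10 days, and the other 38 libraries of the series entered the fit for the estimate of spread. Per the labels and the study's methods, the authors trimmed the reads, aligned them with STAR 2.7.2a to EquCab 3.0, counted reads per Ensembl gene and deposited GeTMM, an RPKM-like value with TMM scaling made with edgeR. Of 30371 entries, 13157 had no symbol. The authors' own comparisons were not used.

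Every gene above 0 in a library (24065 of 24065, within 0.02 reads) came back as whole reads, at 18.8 to 27.4 M reads in each of the 30 libraries. The step that 1 read makes was estimated from the values, so these depths are reconstructed.

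A gene was tested (14570 were) if 7 or more of the 68 libraries held 0.5 GeTMM of it or above. The group interaction came from limma 3.58.1 in R 4.3.3 (lmFit, eBayes with trend) on log2(GeTMM + 1), with all 9 groups in 1 fit. The within-horse fit used each horse's difference of differences, without 12 genes at 0 in all its libraries. Tests were two-sided, with Benjamini-Hochberg FDR under 0.05, and fold changes on this scale understate low genes. Each library is 1 culture of 1 horse, and the 8 horses gave several libraries each. The group interaction had no term for horse and treated the 68 libraries as independent, so its FDR values ignore that repetition. Libraries of the same horse deviated together from their group means (median r 0.28 over 43 pairs, 0.03 to 0.70). For different horses the median was -0.05, with a range of -0.40 to 0.53. The horse in the labels gave the pairing. Which shared feature of a horse's cultures lay behind the correlation was not tested. There were 0 identical columns.

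In simulated data for the group interaction, 78% of genes changed by 1 log2 unit and 92% of those changed by 2 were called, with 0 of 14370 unchanged genes. The values were 84% and 93% with the term for horse (5 unchanged genes called), 73% and 91% for the 30 libraries alone (1) and 65% and 92% within horses (4). The simulation took 1 spread per gene, equal in all groups, from the libraries other than Moon's SF 6 d, and changed only genes of higher level. In the data, the median residual standard deviation of the 4 groups was 0.401 with that library and 0.291 without it. With it, the value was 0.516 in SF 6 d and 0.243 to 0.283 in the other groups of the series. The simulated shares therefore do not tell how often the fits with that library find such changes. Nor do the simulated counts tell how often those fits call unchanged genes.

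The members, 18 gene lists, 8 cell type lists and the rules below were chosen with earlier results of these data known. Named genes were those with a symbol and a mean of at least 5 GeTMM in a group: the 12 highest and 12 lowest called interactions (18 genes), then the 6 highest and 6 lowest within horses (12), then up to 3 called members of each list or, with none, its first 2 tested. A few genes that the rule picks are not reported here. Alternatives changed the pseudocount, filter, scaling, libraries, weights, horse term and tool, including limma voom on recovered reads, which called 12 genes. Figures and summaries used Python 3.11.15.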

Additional observations from a re-analysis of the deposited data

Results flagged for a closer look

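In 292 groups of samples (73 named genes in 4 groups), the highest or lowest library lay far from the others of its group in 37, in 33 genes. For 1 group of independent values, chance gives this at a rate of about 1 in 20. The groups here share libraries, and many of the genes were picked from these values. The 37 can therefore not be set against that rate. Of the 37, 22 were libraries of the horse Moon, 17 of them its SF 6 d library. In that library these genes were high, in GeTMM and beside the group median: WFDC2 1255 (median 156), HBA 89.3 (median 8.37), HACD1 97.8 (median 48.4), NDUFA1 1254 (median 306), NDUFA4 2666 (median 583), RPL3 3157 (median 882), RPL4 2027 (median 549), HSP90B1 754 (median 375), S100A4 20807 (median 1214) and ALAS2 0.654 (median 0.0491). These were low: ENDOD1 0 (median 4.00), DDIAS 0 (median 2.34), SLC35F6 16.6 (median 76.8), IFIT2 3.30 (median 57.1), LAMP1 353 (median 1454), NFE2L2 80.8 (median 197) and PECAM1 26.5 (median 57.0). Other libraries of Moon held MASTL 11.3 in ISF 10 d (median 3.97), PLK1 19.5 in ISF 10 d (median 4.13), CD163 162 in SF 10 d (median 545), COL1A1 13.6 in ISF 10 d (median 0.0470) and COL1A2 12.1 in ISF 10 d (median 0.153), each in GeTMM.

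The libraries of Catnip held TNFAIP6 372 in ISF 6 d (median 208), S100A4 753 in ISF 10 d (median 2035) and ADIPOQ 0.337 in ISF 10 d (median 0). The libraries of Dealings held MCM2 7.91 in SF 10 d (median 15.5), NR1H3 175 in SF 10 d (median 85.4), MMP1 21.6 in ISF 6 d (median 203), NDUFA1 194 in ISF 6 d (median 409) and ELANE 14.9 in SF 6 d (median 356). The libraries of Lurie held PID1 23.6 in SF 10 d (median 4.90), TNFRSF18 1.52 in SF 10 d (median 17.6) and SLC2A1 26.2 in SF 10 d (median 2.94). The libraries of Ollie held COG2 19.5 in ISF 6 d (median 17.6), COL1A1 21.1 in ISF 6 d (median 0.222) and COL1A2 18.6 in ISF 6 d (median 0.357). The ISF 6 d library of RimRun held MMP2 7.00 (median 1.01). 

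A changed fluid difference between 6 and 10 days was called by the interaction itself (limma, FDR under 0.05) for 19 named genes. These genes were named because of that call, so the count is not a separate result. The fit of the 30 libraries alone called 0 genes. On the log2 scale it was lower for TNFAIP6 (-2.56), LRP4 (-1.77), PHF19 (-1.67), ENDOD1 (-1.45), CENPA (-1.42), DDIAS (-1.28), MASTL (-1.26), MCM2 (-1.25), SLC35F6 (-1.25), MCM3 (-1.22), ACTB (-1.12), TUBA1A (-1.10) and MCM4 (-1.05). It was higher for GRSF1 (0.66), DYM (0.63), TDRD3 (0.63), MPHOSPH10 (0.58), NAA35 (0.48) and COG2 (0.38).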

How the results depend on the processing

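Against 33 calls in the group interaction, other settings gave 99 without Moon's SF 6 d library, 20 and 88 with pseudocounts of 0.1 and 10, 81 after rescaling to equal sums (75 lower), 202 with library weights, 12 with limma voom on recovered reads, and 20 with an absolute log2 interaction of at least 1. With horse as a replicate block, the pairing by animal, there were 270. The 30 libraries alone gave 0 (lowest FDR 0.205, 1263 at an unadjusted p under 0.05 by limma), and the 28 of complete horses with the block 0 (1602). Leaving out 1 horse gave 1 (Ollie) to 194 (Moon). Chosen after seeing the data, the block without Moon's library gave 380, voom without it 84, the 30 alone without it 0 (1761) and with the block 4. Without Lurie's SF 10 d library there were 15 calls, and 67 without both libraries. No filter (34), a filter of 5 GeTMM (47) and median ratios (39) stayed within 1.5 times. Against 27 calls within horses, there were 403 without Moon, 14 with a pseudocount of 0.1, 0 without a filter (2550 at an unadjusted p under 0.05 by limma), 57 with the filter of 5 GeTMM and 122 after rescaling, and 0 to 403 leaving out 1 horse. For SF from 6 to 10 days, 319 genes were called without Moon's library, 1450 with the replicate block and 198 to 768 leaving out 1 horse, against 696. Leaving out 1 horse gave 1945 to 4086 for ISF against SF at 10 days and 854 to 2278 for ISF from 6 to 10 days. The 18 genes named from the group interaction kept their call in 248 of 468 refits, lost it in 220 and turned direction in 0. Of 3110 values of named genes under all alternatives, 81 in 13 genes changed sign, and none of these was called. The cause of these changes was not tested.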
